A study of Mus musculus with 12 samples.

Results

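Voltage-gated sodium channels carry the rising phase of the action potential. A large alpha subunit forms the pore, and smaller beta subunits, which are single-pass membrane proteins with an immunoglobulin domain, tune its gating and take part in cell adhesion. In the brain the alpha subunit genes are used in a developmental order: Scn3a is typical of embryonic neurons, Scn2a of the axons of young projection neurons, and Scn8a of the axon initial segment of mature neurons, while Scn1a is prominent in inhibitory interneurons. Scn4b is well known from adult striatal projection neurons.

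The 7 genes described here, the alpha subunit genes Scn1a, Scn2a, Scn3a and Scn8a and the beta subunit genes Scn2b, Scn3b and Scn4b, were taken by name from 25428 gene-level probe sets. All 7 were found, with 1 probe set each. Expression was measured on 12 arrays in striatum dissected at embryonic day 18.5 from C57BL/6J mice. The design names 6 wild-type (WT) animals and 6 animals labelled Nestin-Cre (Foxp1-/-), called cKO here, in which Foxp1, a forkhead transcription factor of striatal projection neurons, was deleted. Nestin drives Cre in neural progenitors, so their neuronal and glial descendants can be affected alike. Whether the WT embryos carried Cre or a floxed allele was not given in the sources used here. Values are RMA log2 expression: a difference of 1 is a doubling, and each probe set has its own scale, so levels are compared between groups and not between genes.

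The targeted gene followed its labels. Foxp1 lay between 10.89 and 11.39 in WT and between 10.14 and 10.36 in cKO, a change of -0.91 ± 0.07 (SE; limma adjusted p = 0.000170). Of 16 listed markers of striatal projection neurons, 14 were measured, and all 14 lay above the median probe set, which was at 5.71 on every array. Of these 14 markers 2 fell in limma, the phosphodiesterase gene Pde10a (-0.59 ± 0.09 SE, adjusted p = 0.00870) and the transcription factor gene Ikzf1 (-0.59 ± 0.07 SE, adjusted p = 0.00353), and 0 rose. At an unadjusted p under 0.05, 6 had negative and 2 positive changes (5.67% and 5.06% of all probe sets). The positive ones were Penk (0.38 ± 0.08 SE, limma adjusted p = 0.0501) and Gad1 (0.16 ± 0.04 SE, limma adjusted p = 0.128). Of all 14 changes, 6 were above 0. The median over the list was -0.10, and its average spanned 8.65 to 8.92 on WT arrays and 8.53 to 8.70 on cKO arrays. The part of these marker changes in the sodium channel values was not tested. Across all genes, limma called 185 probe sets (0.728%) at an adjusted p of 0.05, of which 76 (0.299%) rose and 109 (0.429%) fell in cKO.

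No change of a sodium channel subunit gene between WT and cKO striatum was detected by this test. Of the 7 genes, 0 passed over all probe sets in limma, 0 higher and 0 lower, against backgrounds of 0.728% in either direction, 0.299% higher and 0.429% lower. Before adjustment, 2 genes had a p under 0.05, Scn1a and Scn3b, both with higher values in cKO, where 10.7% of all probe sets passed in either direction 5.06% higher and 5.67% lower. All 7 estimates were above 0, against 48.8% of all probe sets, but most were close to it. The median change was 0.03 on the log2 scale, and for all 7 genes the WT and cKO arrays overlapped, as they did for all but 1.38% of probe sets. In a whole-tissue sample such as this, fewer cells of a type and less RNA per cell cannot be told apart.

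**Figure D1:**
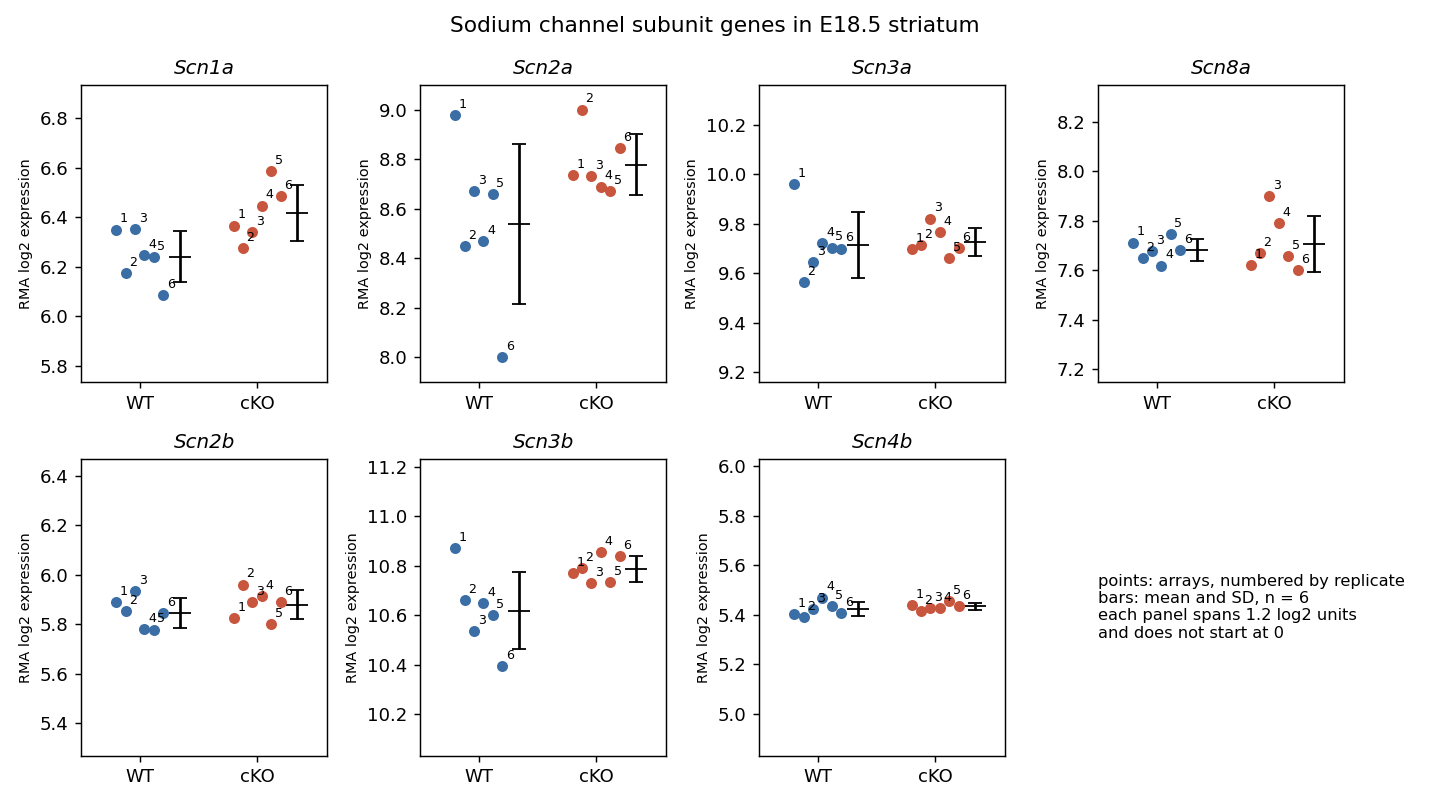
RMA log2 expression of the 7 sodium channel subunit genes on each of 12 arrays, WT in blue and cKO in red, numbered by replicate, with the mean and SD of each group (n = 6). Every panel spans the same range of log2 units. The groups overlap in all 7 panels, and the widest spread is that of Scn2a in WT, from 8.0 to 8.98.

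Among the alpha subunits, Scn1a had the smallest p. Its log2 expression on WT arrays 1 to 6 was 6.35, 6.17, 6.35, 6.25, 6.24 and 6.08. On cKO arrays 1 to 6 it was 6.37, 6.28, 6.34, 6.45, 6.59 and 6.49. All 6 cKO arrays lay above the WT mean and 4 above the highest WT array, while cKO arrays 2 and 3 fell within the WT range. The change was 0.18 ± 0.06 (SE), or 1.13-fold, with a 95% interval from 0.05 to 0.30 and an adjusted p of 0.262.

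Scn2a had the largest estimate and the widest error. WT arrays 1 to 6 read 8.98, 8.45, 8.67, 8.47, 8.66 and 8.0, a spread of 1.97-fold among wild-type arrays. The cKO arrays read 8.74, 9.0, 8.73, 8.69, 8.67 and 8.84. All 6 cKO values were above the WT mean of 8.54 ± 0.32 (SD, n = 6), but only cKO array 2 exceeded WT array 1. The change was 0.24 ± 0.13 (SE), with a 95% interval from -0.05 to 0.53 (adjusted p = 0.555). In fold terms the interval runs from 0.967 to 1.44, so a rise of up to that size could not be told from no change. The residual SD of Scn2a, 0.246 log2 units, was at the 99.2nd percentile of all probe sets, whose median was 0.0469. Without WT array 6 the estimate was 0.13 and without WT array 1 it was 0.33, and neither passed (adjusted p = 0.737 and 0.317).

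The embryonic isoform gene Scn3a was level between the groups. Its WT values were 9.96, 9.56, 9.64, 9.72, 9.70 and 9.70, and its cKO values 9.70, 9.71, 9.82, 9.77, 9.66 and 9.70. Every cKO array lay inside the WT range. The change was 0.01 ± 0.06 (SE), with a 95% interval from -0.11 to 0.13, or 0.927- to 1.10-fold (adjusted p = 0.966).

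Scn8a, the gene of the mature initial segment channel, was also similar in both groups. WT arrays read 7.71, 7.65, 7.68, 7.62, 7.75 and 7.68, and cKO arrays 7.62, 7.67, 7.90, 7.79, 7.66 and 7.60. The cKO values spread more widely than the WT values, with cKO arrays 3 and 4 above every WT array and cKO array 6 below every one. The change was 0.03 ± 0.05 (SE; 95% interval -0.08 to 0.13, adjusted p = 0.898).

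Among the beta subunits, Scn3b, which associates with the pore without a disulphide bond, had the largest estimate. It read 10.87, 10.66, 10.54, 10.65, 10.60 and 10.39 in WT and 10.77, 10.79, 10.73, 10.86, 10.73 and 10.84 in cKO. WT array 1 was higher than all 6 cKO arrays, and every other WT array was lower than all of them. The change was 0.17 ± 0.06 (SE), or 1.12-fold (95% interval 0.03 to 0.31, adjusted p = 0.350). Without WT array 1 the estimate was 0.22 and the adjusted p 0.0684, the lowest of any alternative for the 7 genes. Without WT array 6 the estimate was 0.12 and the adjusted p 0.493.

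Scn2b and Scn4b, the beta subunits that bind the pore by a disulphide bond, were measured in the low part of the scale, which ran from 5.21 to 13.99. All 12 Scn2b values were above the median probe set at 5.71. Scn2b ran from 5.78 to 5.93 in WT (median 5.85) and from 5.80 to 5.96 in cKO (median 5.89), with a change of 0.03 ± 0.03 (SE; 95% interval -0.04 to 0.11, adjusted p = 0.771). Scn4b ran from 5.39 to 5.47 in WT (median 5.41) and from 5.41 to 5.46 in cKO (median 5.43), with a change of 0.01 ± 0.01 (SE; adjusted p = 0.813). All 12 Scn4b values were below the median probe set. RMA compresses differences there, so the narrow interval of Scn4b, from -0.02 to 0.04, does not bound the change of a transcript that may not be above background.

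**Figure D2:**
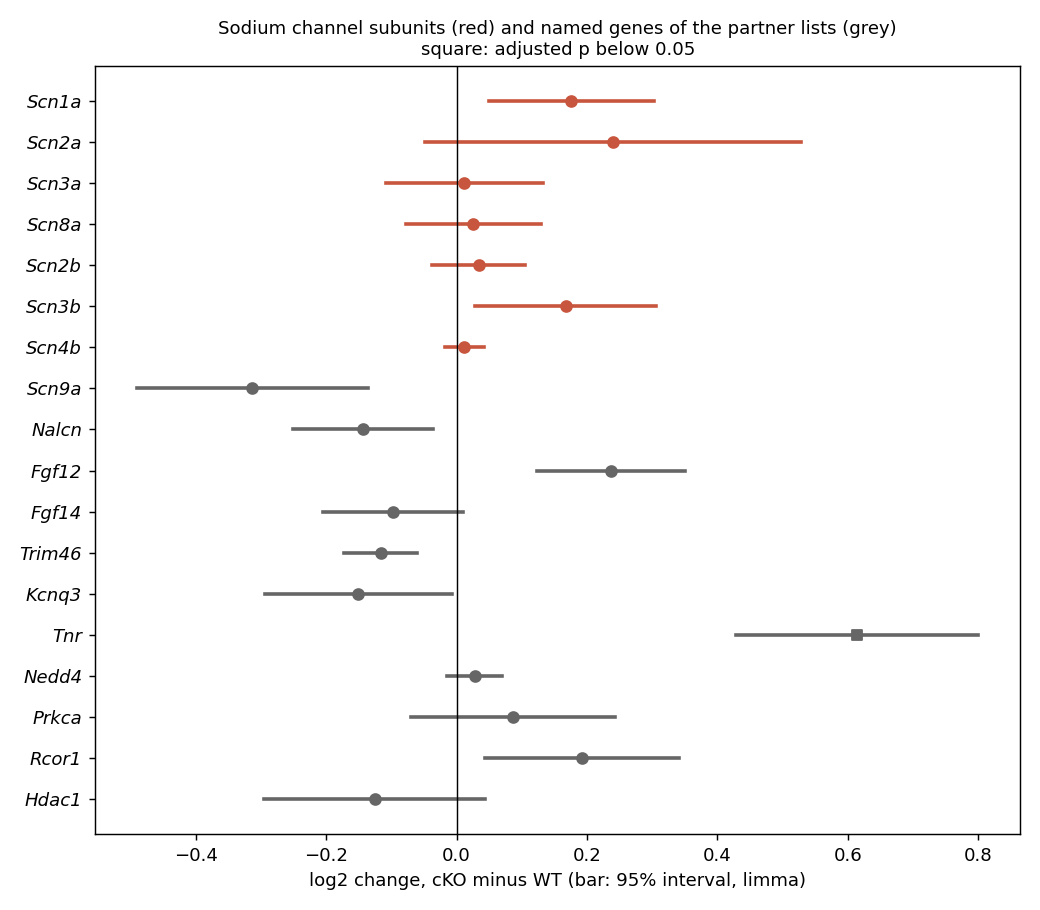
Log2 change, cKO minus WT, with its 95% interval from limma for the 7 subunit genes (red) and for the named genes of the partner lists (grey). The intervals of Scn1a and Scn3b lie above 0 before adjustment, and Tnr, drawn as a square, is the only gene shown with an adjusted p below 0.05.

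Scn1a, Scn2a and Scn3b, the 3 members with the smallest limma p, were compared array by array. WT array 6 was the lowest of all 12 arrays for all 3 genes. WT array 1 was the highest WT array for Scn2a and Scn3b, and also for Scn3a. After each group's mean was removed, Scn2a and Scn3b had a Pearson r of 0.762 over the 12 arrays, the highest of 21 pairs among the 7 genes. The other pairs ran from -0.666, for Scn2b with Scn4b, to 0.538, for Scn3a with Scn3b, and the median over all 21 was 0.170. Scn3a had an r of 0.467 with Scn8a and 0.453 with Scn2a, both above those of Scn1a with Scn2a (0.417) and with Scn3b (0.416). Shared variation was therefore not particular to these 3 genes. These correlations are descriptions. On each array the 7 genes were read from the same RNA and normalized together, so they are not independent readings of a difference between groups.

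**Figure D3:**
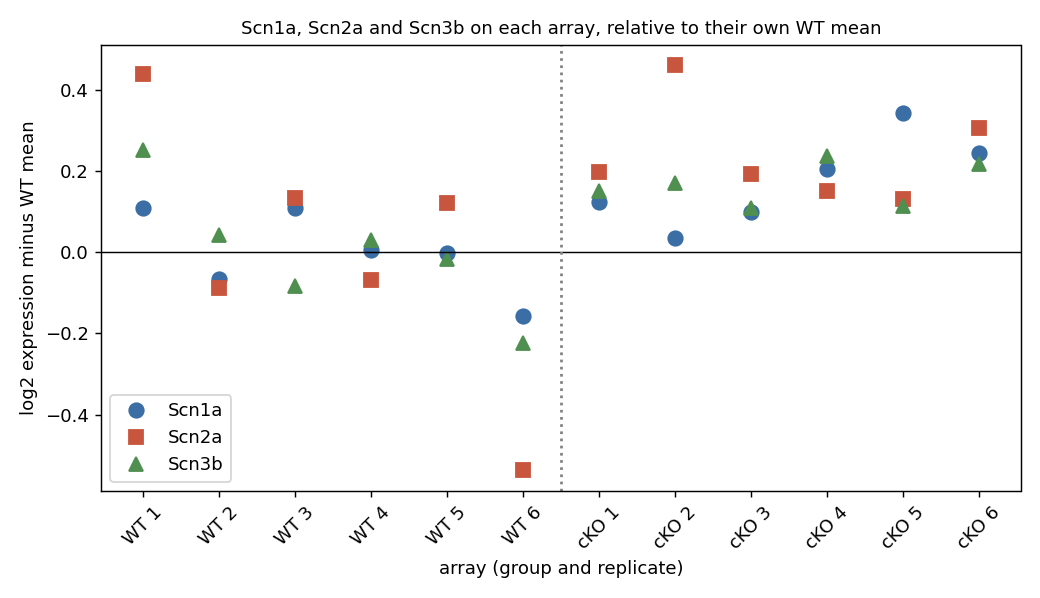
Log2 expression of Scn1a, Scn2a and Scn3b on each array minus that gene's own WT mean, WT arrays left and cKO arrays right of the dotted line. All 6 cKO arrays are above 0 for all 3 genes, and WT array 6 is the lowest array for each.

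Other cell types were read from marker lists on the same arrays. All 9 measured genes of the list of cortical glutamatergic neurons, a neighbouring tissue, had positive changes, against 48.8% of all probe sets. Of these, 0 passed in limma and 2 were higher at an unadjusted p under 0.05 (5.06% of all probe sets). The list averaged between 5.95 and 6.30 on WT arrays and between 5.96 and 6.51 on cKO arrays. When this average entered the model, a step chosen after seeing the data, the estimates were 0.16 for Scn1a (adjusted p = 0.485), 0.26 for Scn2a (adjusted p = 0.641) and 0.16 for Scn3b (adjusted p = 0.525). WT arrays 1 and 6, which differed most in Scn2a, averaged 5.98 and 6.13 on that list. The progenitor list, in which all 10 measured genes had positive changes, 4 were higher at an unadjusted p under 0.05 (5.06% of all probe sets) and 1 of them rose at the adjusted threshold (Aurkb; 0.299% of all probe sets), averaged 8.45 to 8.80 in WT and 8.63 to 8.88 in cKO. The part of cortical cells and progenitors in the values of Scn1a, Scn2a and Scn3b beyond that covariate was not tested. Of 13 pan-neuronal genes 1 fell in limma (0.429% of all probe sets), the neurofilament gene Nefl. At an unadjusted p under 0.05, 1 was higher and 3 were lower (5.06% and 5.67% of all probe sets). The list averaged 9.90 to 10.13 in WT and 9.86 to 9.96 in cKO. Of 11 measured interneuron genes, 1 rose, Maf (0.299% of all probe sets), and 1 fell, Cxcr4 (0.429% of all probe sets). At an unadjusted p under 0.05 the counts were also 1 higher and 1 lower (5.06% and 5.67% of all probe sets). The interneuron list averaged 7.40 to 7.49 in WT and 7.46 to 7.51 in cKO. In the lists for astrocytes, the oligodendrocyte lineage, microglia, and endothelial cells and pericytes, 0 of 30 measured genes passed in limma. At an unadjusted p under 0.05 there were 5 of the 30, against 10.7% of all probe sets. Pvalb, a marker of the mature interneurons in which Scn1a is prominent, was below the median probe set on all arrays. Lhx6 and Sst of the interneuron list, which also holds Pvalb, were above it on all arrays. Of the 11 measured interneuron genes, 3 averaged below the median probe set.

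Scn3a, Scn2a and Scn1a lie in a cluster on chromosome 2 that also holds Scn9a and Scn7a, and Scn2b and Scn4b are next to each other on chromosome 9. Whether neighbours changed unequally was tested on their within-array log2 differences, with a two-sided exact permutation test over 924 assignments of the arrays. Relative to Scn3a, Scn2a was higher in cKO by 0.23 (exact permutation p = 0.0801) and Scn1a by 0.16 (exact permutation p = 0.0736), both with an adjusted p of 0.160 over 4 pairs. The difference was 0.06 for Scn2a relative to Scn1a and -0.02 for Scn4b relative to Scn2b (adjusted p = 0.632 for both). None of the 4 pairs passed, and the smallest p the exact test allows is 0.00216.

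Of the neighbours outside the 7, Scn9a, an alpha subunit gene best known from peripheral sensory neurons, had the largest estimate. WT arrays 1 to 6 read 7.94, 7.78, 7.97, 7.86, 7.76 and 7.73 and cKO arrays 7.74, 7.63, 7.71, 7.32, 7.37 and 7.39. All 6 cKO arrays were below the WT mean, and cKO array 1 alone reached into the WT range. The change was -0.31 ± 0.08 (SE, adjusted p = 0.128), opposite in sign to that of Scn1a beside it. With the cortical marker covariate it was -0.19 (adjusted p = 0.254). Scn9a passed in 0 of 21 alternatives, with a limma adjusted p from 0.0512, with dim probe sets left out, to 0.267. The 3 cKO arrays with the lowest Scn9a, 4, 5 and 6, had cortical list averages of 6.41, 6.44 and 6.51, the highest of the 12. The part of cortical cells in the Scn9a values beyond the cortical marker covariate was not tested. The genes between Scn2a and Scn1a read -0.06 (Csrnp3), -0.0042 (Galnt3) and 0.12 (Ttc21b). Of the 8 protein-coding genes of the cluster, 0 passed in limma and 3 had an unadjusted p under 0.05, against 10.7% of all probe sets. The probe positions were not given, so signal shared between these related genes was not tested.

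**Figure D4:**
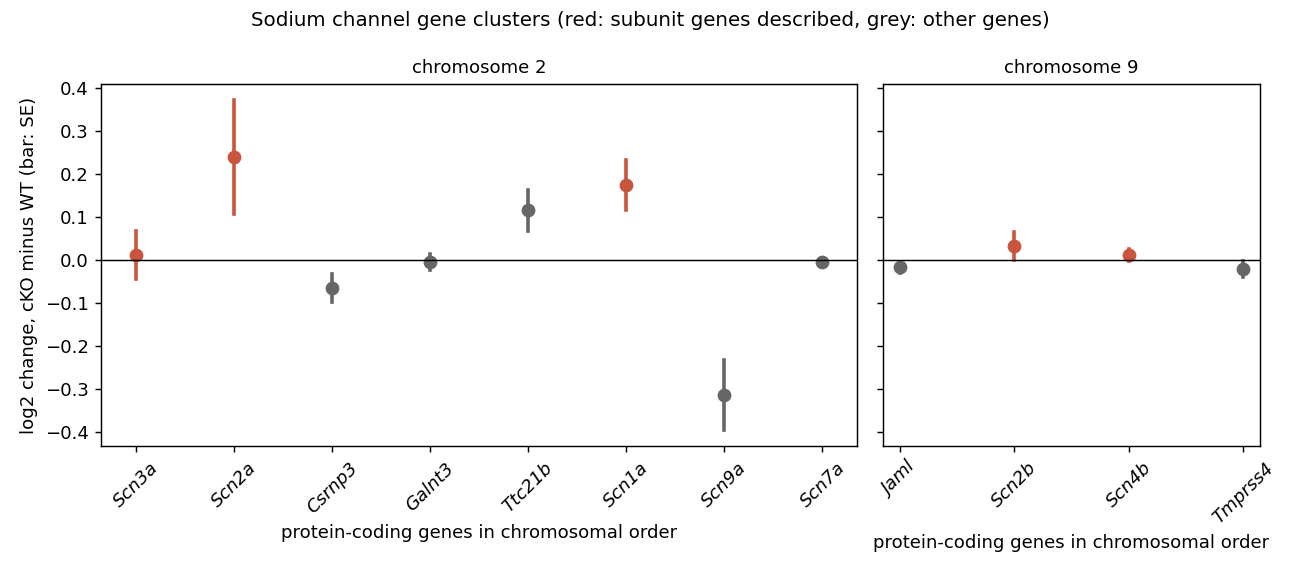
Log2 change, cKO minus WT, with its SE for the protein-coding genes of the chromosome 2 cluster and around Scn2b and Scn4b on chromosome 9, in chromosomal order (subunit genes described here in red). Scn1a and Scn9a are neighbours with estimates of opposite sign, 0.18 and -0.31.

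The promoter table of RefSeq (GRCm38.p6) held 7 start sites for 5 of the 7 genes, and none for Scn3a and Scn3b, which were therefore not searched. Because the deleted protein is a forkhead factor, the 250 bases before each start were searched on both strands for the forkhead motif TGTTTAC, its shorter core TGTTT and the opening bases of the REST element, TTCAGCACC. The full forkhead motif was in 0 of 7 windows, against 3.17% of 32851 windows in the table, and the REST sequence in 0 of 7, against 0.301%. The 5-base core, which the longer motif contains, was in 2 of 7 windows, against 46.4% of all. These windows, at a start of Scn2a and at that of Scn4b, are shown 5′ to 3′ with the core, or its reverse complement AAACA, in capitals.
Scn2a, chr2:65668436-65668685, plus strand: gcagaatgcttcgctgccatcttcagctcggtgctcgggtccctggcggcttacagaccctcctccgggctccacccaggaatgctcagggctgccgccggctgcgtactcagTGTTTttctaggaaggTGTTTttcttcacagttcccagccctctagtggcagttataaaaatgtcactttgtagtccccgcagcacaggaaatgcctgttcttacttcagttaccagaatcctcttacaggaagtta
Scn4b, chr9:45138374-45138623, plus strand: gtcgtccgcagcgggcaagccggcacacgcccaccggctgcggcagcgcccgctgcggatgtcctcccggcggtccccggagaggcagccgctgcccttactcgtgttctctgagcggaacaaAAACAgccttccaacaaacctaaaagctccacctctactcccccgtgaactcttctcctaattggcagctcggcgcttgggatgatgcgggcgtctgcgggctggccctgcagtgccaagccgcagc
A match is a description of the letters and no evidence of binding, and the absence of a match concerns these windows only.

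Genes that work with sodium channels were read from lists covering the channel's other subunits, its intracellular partners and its scaffold. Among other sodium channel genes, 5 of 8 were measured and 0 passed in limma. At an unadjusted p under 0.05, 2 were lower (5.67% of all probe sets). The median change was -0.02 against -0.00077 over all probe sets. The sodium leak channel gene Nalcn read -0.14 ± 0.05 (SE; adjusted p = 0.282), and Scn7a, Scn10a and Scn11a lay below the median probe set.

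The fibroblast growth factor homologous factors bind the cytoplasmic tail of the alpha subunit and shift its inactivation. Of 4 measured, 0 passed in limma, 1 having an unadjusted p under 0.05 (10.7% of all probe sets). Their median change was -0.08. Fgf12 read 7.69, 7.48, 7.67, 7.62, 7.61 and 7.41 in WT and 7.81, 7.79, 7.87, 7.80, 7.71 and 7.93 in cKO. All 6 cKO arrays were above every WT array, a separation found with cKO above in 0.562% of all probe sets. The change was 0.24 ± 0.05 (SE; adjusted p = 0.0688). It passed in 1 of 21 alternatives, the one restricted to brighter probe sets, and its adjusted p over all alternatives ran from 0.0304 to 0.216. Fgf14, which is needed for channel clustering in many neurons, read -0.10 ± 0.05 (SE; adjusted p = 0.517).

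The axon initial segment scaffold anchors the channels through ankyrin-G, encoded by Ank3, and spectrins. Of 11 measured genes 0 passed in limma (3 at an unadjusted p under 0.05, against 10.7% of all probe sets), with a median of -0.02. Ank3 read -0.01 ± 0.05 (SE; adjusted p = 0.964), a gene chosen after its values were seen. Trim46, which organises microtubules at the initial segment, read 8.98, 8.92, 8.93, 9.002, 8.98 and 9.02 in WT and 8.82, 8.89, 8.87, 8.91, 8.77 and 8.86 in cKO. The groups did not overlap, with cKO below as in 0.822% of all probe sets, although cKO array 4 and WT array 2 nearly touched. The change was -0.12 ± 0.03 (SE; adjusted p = 0.0730, and 0.0531 to 0.289 over 21 alternatives). Kcnq3, a potassium channel subunit held by the same scaffold, read -0.15 ± 0.07 (SE; adjusted p = 0.428).

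Of 9 surface and matrix partners of the beta subunits, 1 rose in limma (0.299% of all probe sets) and 0 fell. Before adjustment, 3 were higher and 1 was lower at a p under 0.05 (5.06% and 5.67% of all probe sets). Tnr encodes tenascin-R, a matrix protein that binds beta subunits. It read 8.48, 7.99, 7.89, 8.16, 7.92 and 8.004 in WT and 8.64, 8.71, 8.72, 8.62, 8.76 and 8.70 in cKO. All cKO arrays were above all WT arrays, and the rise was 0.62 ± 0.08 (SE; adjusted p = 0.00721). Blocking on replicate number gave an adjusted p of 0.0793, and it passed in the other 20 of 21 alternatives. The other 3 with an unadjusted p under 0.05 were the adhesion genes L1cam (-0.19) and Cdh2 (0.10) and the matrix gene Tnc (0.38), none past the adjusted threshold, and the list median was 0.03.

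Channel-modifying enzymes and calmodulin genes showed 0 of 11 measured genes past the threshold in limma. At an unadjusted p under 0.05 there were also 0, against 10.7% of all probe sets. Their changes ran from -0.07 to 0.11. The ubiquitin ligase gene Nedd4 read 0.03 ± 0.02 (SE; adjusted p = 0.662) and the protein kinase C gene Prkca 0.09 ± 0.07 (SE; adjusted p = 0.727). In the REST corepressor complex, which silences neuronal genes including Scn2a in other cells, 0 of 7 passed in limma. At an unadjusted p under 0.05 there was 1, against 10.7% of all probe sets. Rest itself read 0.01, the corepressor gene Rcor1 0.19 ± 0.07 (SE; adjusted p = 0.303) and the deacetylase gene Hdac1 -0.13 ± 0.08 (SE; adjusted p = 0.610).

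The genes whose values followed the members most closely were named by their Pearson r over the 12 arrays, group difference included. For Scn1a these were Nmi (0.936), Gab3 (0.886) and Aloxe3 (0.885). For Scn3b they were Tmem30a (0.941), 1110015O18Rik (0.940) and Camk2d (0.931), and for Scn2a Ptchd1 (0.960), Prr5 (0.952) and Nap1l2 (0.950). None of these 9 passed the threshold in limma, with an adjusted p from 0.211 to 0.724. The r values are the top of a search over all named probe sets and describe these arrays alone.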

How the data were processed

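The deposited values are log2 expression; RMA is the tool listed by the submitters' processing notes. Its version, the probe positions and the probe set definition were not stated in the labels or notes used here. Sorted values of 11 arrays matched to within 0.000977 log2 units, and those of cKO replicate 1 to within 0.00187 of cKO replicate 2, so a change common to all genes would not be visible. Symbols came from the platform annotation, updated through RefSeq gene identifiers (24674 named probe sets, 754 unnamed). The cKO and WT arrays entered 1 model in limma 3.58.1 under R 4.3.3 (lmFit, eBayes, two-sided, no covariates) over 25428 probe sets and 12 arrays, with Benjamini-Hochberg adjustment over all of them and a threshold of 0.05. The labels call the samples biological replicates. The script was tested on simulated data. Alternatives were a renewed quantile normalization, median centring, leaving out dim or unnamed probe sets, array weights, a trended robust prior, a block for replicate number, a Y-linked or cortical marker covariate, a stricter threshold, and leaving out each array. Neighbouring genes were compared by an exact permutation test. Named are all 7 members, Foxp1, up to 4 genes past the threshold per partner list or the 2 with the smallest p, and the 3 genes most correlated with each of 3 members. Genes named outside the rule were chosen after their values were seen. Among them were Ank3, Rest, Nefl, Aurkb, Maf, Cxcr4, Pvalb, Lhx6, Sst, Pde10a, Ikzf1, Penk, Gad1, L1cam, Cdh2 and Tnc. The members and lists were chosen with earlier results of these data known. The number of arrays limits the precision, and detection calls were not used here.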

Additional observations from a re-analysis of the deposited data

How the results depend on the processing

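None of the 7 subunit genes passed the threshold in any of 21 alternatives (20 for Scn4b, which was left out with the dim probe sets), and Scn1a, Scn2a, Scn2b, Scn3b and Scn4b kept a positive estimate in all that were run. Estimates near 0 turned sign when single arrays were left out: Scn3a ran from -0.0186 (also -0.0022 and -0.0069) to 0.0607, Scn8a from -0.0126 to 0.0471, the Scn2a minus Scn1a difference from -0.0117 (also -0.0081) to 0.1305 and the Scn4b minus Scn2b difference from -0.0418 to 0.0013. The count of 185 among 25428 probe sets (76 higher, 109 lower) was 278 (118 and 160) among 12714 with dim probe sets left out. It was 93 (38 and 55) with the cortical marker covariate, added after the data were seen, and 61 (19 and 42) at an adjusted p below 0.01. Leaving out 1 array gave 106 to 227 in all, 39 to 93 higher and 66 to 134 lower, with totals of 106, 117 and 109 without cKO replicates 2, 3 and 5. A replicate block gave 64 (24 and 40). Nothing in the labels says that the numbers pair animals. The deviations of same-numbered arrays correlated between -0.221 and 0.155, which cannot show whether these arrays share more than a number. The cause of these shifts was not tested. The Y-linked covariate used 3 of 4 planned genes.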
